A study of Homo sapiens with 5 samples.

Results

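The nuclear-encoded respiratory chain genes are the genes of the cell nucleus that encode subunits of oxidative phosphorylation complexes I to V. They were chosen by gene symbol among protein-coding genes (the NDUFA, NDUFB, NDUFC, NDUFS and NDUFV genes without the NDUFAF assembly factors, the 4 SDH genes, the UQCR genes and CYC1, the COX4I, COX5, COX6, COX7 and COX8 genes, and the ATP5 genes without ATP5S). The rule itself used no measured value, but the members were chosen with earlier results of these data known. The rule named 91 genes of the annotation, of which 88 were among the 30476 gene identifiers of the RNA-seq table, and COX6A2, COX7A1 and COX7B2 were not analysed here. Complex I had 40 of these members, complex II 4, complex III 10, complex IV 14 and complex V 20. Members were assigned to complexes by symbol alone. Every NDUF gene, NDUFA4 and NDUFA4L2 among them, was therefore counted with complex I wherever its protein sits.

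The RNA-seq libraries were made from TOV21G, a cell line established from an ovarian clear cell carcinoma, in which ARID1A, a subunit of the SWI/SNF chromatin remodelling complex, is mutated. The parental group was 1 library of untreated TOV21G cells. EZH2 inhibitor-resistant (EIR) cells were clones of this line picked after stepwise exposure to GSK126, an inhibitor of the histone methyltransferase EZH2, from 5 uM up to 20 uM. Resistant clones 3 and 4 were each sequenced without and with GSK126, giving 4 EIR libraries. The dose and duration of that last treatment are not given in the sources used here. Because each clone contributed 2 libraries, the 4 EIR libraries represented 2 clones, and no replicate of parental cells was present. The comparison of EIR with parental cells asked which genes changed with acquired resistance.

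Electrons from NADH enter the chain at complex I (NADH dehydrogenase) and those from succinate at complex II, which is also an enzyme of the citric acid cycle. Complex III passes them through cytochrome c to complex IV (cytochrome c oxidase), and the proton gradient built on the way drives complex V, the ATP synthase. Most subunits are encoded in the nucleus, while a small core is encoded by mitochondrial DNA and lies outside the rule.

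Library totals ranged from 25479238 to 30764963 estimated counts. The line's epithelial markers PAX8 (3031 to 4491 counts), KRT8 (4331 to 8176) and KRT18 (11896 to 18015) were present in every library, whereas EPCAM had 398 counts in parental cells, 426 and 498 in clone 3, and 0 and 1 in clone 4. NAPSA, a clear cell marker, had 2 counts in the parental library and between 4 and 53 in those of EIR cells. The 9 markers of leukocytes, endothelium and fibroblasts that were measured summed to 157 counts in parental cells, 219 and 210 in clone 3 and 130 and 150 in clone 4, with LUM among those at 0 in parental cells. The part of this difference between the clones in the values below was not tested.

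The promoter windows of the members are shown first, because several members described below hold these letters. Nuclear respiratory factor 1 (NRF1), the ETS factor GABPA, YY1 and the estrogen-related receptors are known regulators of respiratory chain genes. In RefSeq promoters of GRCh38.p14 (250 bases before to 50 bases after a gene's start), 69 of the 88 members had an entry. The letters GCATGCGC, a core of the NRF1 motif, were found on either strand in 14 of these 69 members (20.3%) and in 3.68% of all 27305 genes with an entry. The ETS letters CCGGAAGT were found in 12 members (17.4%, against 4.95% of all genes), the YY1 letters AAGATGGCG in 9 (13%, against 2.14%) and the estrogen-related receptor letters AAGGTCA in 11 (15.9%, against 4.8%). At least 1 of the 4 motifs was present in 31 members and none in 38. The NRF1 letters and their reverse complement overlap in part, and a match is a description of the letters, not evidence of binding. The following stretches hold the NRF1 letters, or their reverse complement, in capitals ahead of the start of members that differed between EIR and parental cells. They lie at chr3:120596157-120596204 (NDUFB4), chr19:1383814-1383861 (NDUFS7), chr2:97645906-97645953 (COX5B) and chr10:7788135-7788176 (ATP5F1C), all on the plus strand of GRCh38.p14.
NDUFB4: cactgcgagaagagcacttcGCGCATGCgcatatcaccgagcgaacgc
NDUFS7: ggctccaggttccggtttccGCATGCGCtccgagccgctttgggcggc
COX5B: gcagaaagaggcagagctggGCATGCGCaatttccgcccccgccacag
ATP5F1C: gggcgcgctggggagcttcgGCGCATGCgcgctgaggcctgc

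The ETS letters, again in capitals on either strand, are shown for 3 members of complexes I, III and IV that also differed. The stretches lie at chr19:19516195-19516224 (NDUFA13), chr11:63974581-63974619 (COX8A) and chr1:46303631-46303678 (UQCRH), on the plus strand of GRCh38.p14.
NDUFA13: taagtcacttccgcccgggaCCGGAAGTgt
COX8A: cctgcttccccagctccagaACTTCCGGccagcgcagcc
UQCRH: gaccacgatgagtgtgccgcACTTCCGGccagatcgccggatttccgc

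Respiratory chain transcripts were lower in EIR than in parental cells in most members, by a modest amount. Of all counts, the 88 members took 1.16% in parental cells, 1.04% in both libraries of clone 3, and 0.929% (untreated) and 0.908% (GSK126-treated) in clone 4. For the 81 members that averaged 100 or more normalized counts over the 5 libraries, here called expressed, the median log2 fold change was −0.34, against −0.06 over 11564 expressed genes. Negative values were found for 69 of the 81, and in 62 of the 81 all 4 EIR libraries lay below the parental library, which was so for 40.6% of all expressed genes. In only 4 members did all 4 lie above it (31.9% of all expressed genes). In these bulk libraries, fewer cells of a kind and less RNA per cell cannot be told apart.

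DESeq2 tested 82 of the 88 members, since 6 had too few counts for its filter. At an adjusted p under 0.05, 19 members were lower and 1 was higher in EIR cells. In either direction the share was 24.4%, against 25.5% of all 16288 genes tested, and thus near the background. By direction, 23.2% of the members were lower against 13.2% of all genes, while the share of all genes that were higher was 12.4%. With edgeR, 13 members were lower (3.6% of all genes) and 0 were higher. That share is over 30476 genes, of which 11564 were expressed, against 81 of the 88 members. The edgeR fits had no filter on low counts, so their later shares of all genes likewise include genes with few counts. An unadjusted DESeq2 p under 0.05 was reached by 33 members that were lower and 2 that were higher. Over all genes with a p-value 5957 reached it in either direction, and of these genes only 16288 entered the adjusted test. The p-values rest on the spread between EIR libraries only, since parental cells had 1 library. When the counts of the 2 libraries of each clone were summed, so that a clone counted once, 5 members were called lower (5.97% of all genes) and 0 higher. For 88 members, a count of 5 lower was near the background. These 5 were NDUFS7, NDUFB4, NDUFB8, NDUFB11 and NDUFA13, all of complex I, and the calls of the other 15 members, given below with 4 libraries, were lost. Leaving out 1 EIR library at a time left 15 to 20 lower members (9.73%, 10.0%, 9.39% and 12.2% of all genes lower without untreated clone 3, untreated clone 4, treated clone 3 and treated clone 4).

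**Figure D1:**
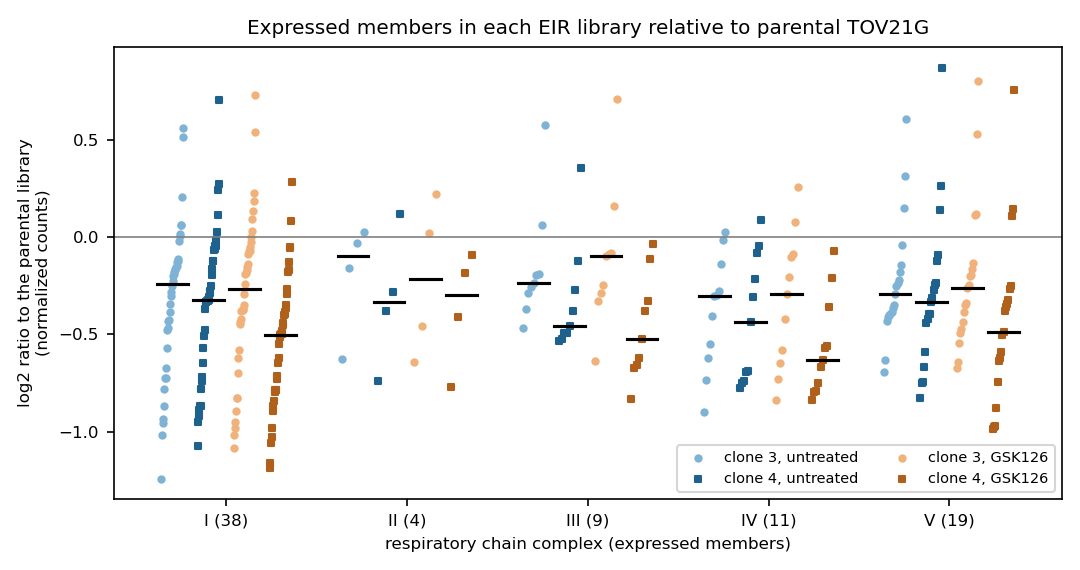
The log2 ratio of normalized counts to the parental library (y axis) is plotted for the expressed members of each complex (x axis, number of members in parentheses), 1 point per member for each of the 4 EIR libraries, with black bars at the medians. Over all complexes together the medians were −0.25 (untreated clone 3), −0.33 (untreated clone 4), −0.25 (treated clone 3) and −0.50 (treated clone 4).

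Each complex had a negative median. Complex I had 10 of 38 tested members lower, complex II 1 of 4, complex III 1 of 9, complex IV 5 of 12, and complex V 2 of 19 with 1 member higher. The shares lower in complexes III (11.1%) and V (10.5%) were below the 13.2% of all genes. Among expressed members the median log2 fold changes were −0.33 (complex I), −0.21 (II), −0.34 (III), −0.39 (IV) and −0.36 (V). After the GC correction described below they were −0.23 (I), −0.18 (II), −0.10 (III), −0.33 (IV) and −0.28 (V). Complex IV was the complex in which every expressed member (11 of 11) had a negative value, from −0.81 to −0.04. Differences between complexes were not tested.

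Normalized counts are given below with the untreated library of a clone before its GSK126-treated library. Fold changes are fitted DESeq2 log2 values ± SE, and p-values are adjusted over all genes. Called members were chosen from these same libraries, so a lack of overlap with the parental library is only a description of them. All 4 EIR libraries lay below it in 40.6% of all expressed genes and above it in 31.9%. In complex I the members of the hydrophilic arm, which carries the NADH site and the iron-sulfur clusters, are considered first. NDUFS7, a core subunit with the last iron-sulfur cluster before ubiquinone, had 1063 in parental cells, 449.9 and 525 in clone 3 and 549 and 539 in clone 4 (−1.04 ± 0.22, adjusted p = 3.13e-05 with DESeq2). All 4 EIR libraries were at about the same level, well below the parental library. NDUFS8, another core iron-sulfur subunit, had 1726 in parental cells, 1044 and 1063 in clone 3 and 1048 and 946 in clone 4 (−0.75 ± 0.17, DESeq2 adjusted p = 0.000174). NDUFA2 and NDUFA7, accessory subunits of this arm, had 860.1 (parental), 520.3 and 463 (clone 3) and 502 and 480.3 (clone 4) and 1115 (parental), 752 and 724 (clone 3) and 752 and 711 (clone 4) counts (−0.81 ± 0.19 and −0.60 ± 0.17, DESeq2 adjusted p = 0.000369 and 0.00272), without overlap between the groups. The call of NDUFA7 was lost without untreated clone 3, untreated clone 4 or treated clone 3 (DESeq2 adjusted p = 0.053, 0.052 and 0.07). The flavoprotein subunit NDUFV1, which binds NADH, did not pass the test at 5137 in parental cells, 3812 and 3764 in clone 3 and 2815 and 2771 in clone 4 (−0.64 ± 0.28, DESeq2 adjusted p = 0.0705). NDUFS1, the largest core subunit, had 10986 in parental cells and 9137 to 10803 in the 4 EIR libraries (−0.16 ± 0.17), and NDUFS3 and NDUFV2 were likewise not called.

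The next 6 called members of complex I belonged to the membrane arm or joined it to the rest. NDUFB4, an accessory subunit on chromosome 3 (GRCh37, 120315175 to 120321354), had 1993 in parental cells, 1029 and 1033 in clone 3 and 949 and 893 in clone 4 (−1.03 ± 0.19, adjusted p = 8.44e-07 with DESeq2 and 0.0144 with edgeR). NDUFB8 (GRCh37, chromosome 10, 102283497 to 102289757) had 4865 in parental cells, 2407 and 2463 in clone 3 and 2574 and 2388 in clone 4 (−0.98 ± 0.14, adjusted p = 4.42e-10 with DESeq2 and 0.0112 with edgeR). In both genes the EIR level was close to a 2-fold reduction, the EIR mean being 0.49 and 0.505 times the parental value. NDUFA13, also known as GRIM-19 (GRCh37, chromosome 19, 19626545 to 19639863), had 4198 in parental cells, 2298 and 2364 in clone 3 and 2302 and 2016 in clone 4 (−0.90 ± 0.18, adjusted p = 6.14e-06 with DESeq2 and 0.0189 with edgeR). NDUFB4, NDUFB8 and NDUFA13 were the 3 members that passed the threshold under every one of the 13 alternative fits with a test. For NDUFA13 the pass was narrow after correction for transcript GC, with a smaller value (−0.45 ± 0.17, DESeq2 adjusted p = 0.0454).

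NDUFB11, an X-linked accessory subunit, had 1598 in parental cells, 838 and 754 in clone 3 and 958 and 704 in clone 4 (−0.97 ± 0.25, DESeq2 adjusted p = 0.00096). NDUFB7 had 1955 in parental cells, 1228 and 1308 in clone 3 and 1057 and 1133 in clone 4 (−0.73 ± 0.20, DESeq2 adjusted p = 0.00304), and NDUFC1 1296 in parental cells, 755 and 731 in clone 3 and 910.4 and 746 in clone 4 (−0.72 ± 0.22, DESeq2 adjusted p = 0.00729). The parental library was above all EIR libraries in each of these 3. NDUFC1 was not called with edgeR (adjusted p = 0.063), nor by DESeq2 without untreated clone 3 (adjusted p = 0.057) or treated clone 3 (0.061). Of the 7 expressed complex I members with positive values, 0 passed the threshold with DESeq2 or edgeR, and 1 of them had an unadjusted DESeq2 p under 0.05. That was NDUFA5, an accessory subunit with 2065 in parental cells, 3047 and 3423 in clone 3 and 3357 and 2514 in clone 4 (0.58 ± 0.24, DESeq2 adjusted p = 0.0621). NDUFAB1, another of the 7, is described with the clones.

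Complex II had 4 members, all of them expressed. SDHA, the flavoprotein that oxidizes succinate, fell, with 8648 in parental cells, 5597 and 5543 in clone 3 and 5183 and 5080.4 in clone 4 (−0.69 ± 0.15, DESeq2 adjusted p = 5.76e-05). SDHB, the iron-sulfur subunit, had 3945 (parental), 3859 and 4007 (clone 3) and 3240.0 and 2973 (clone 4) (−0.16 ± 0.24, DESeq2 adjusted p = 0.673). The membrane anchors SDHC, with 304 (parental), 272 and 221 (clone 3) and 234 and 286 (clone 4), and SDHD, with 1679 (parental), 1711 and 1953 (clone 3) and 1821 and 1476 (clone 4), were not called either (−0.26 ± 0.28 and 0.05 ± 0.23), and the value of SDHD turned negative when treated clone 3 was left out. SDHA has 3 pseudogenes in the table that together held 10.8% of the counts of the gene and its copies, so its counts are less certain than those of the other subunits.

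In complex III, UQCRH, the hinge protein next to cytochrome c1, was the called member, with 17581 in parental cells, 12713 and 11297 in clone 3 and 12511 and 9888 in clone 4 (−0.60 ± 0.21, DESeq2 adjusted p = 0.0232). Its edgeR adjusted p was 0.139, and DESeq2 no longer called it without untreated clone 4 (adjusted p = 0.053) or treated clone 3 (0.095). The core proteins UQCRC1 and UQCRC2 had 7341 in parental cells and 5065 to 6154 in the 4 EIR libraries, and 4709 in parental cells and 3064 to 4438 in the 4 EIR libraries, respectively, and neither passed the test (−0.41 ± 0.20 and −0.34 ± 0.27). The Rieske protein UQCRFS1 (−0.25 ± 0.21) and cytochrome c1, CYC1 (−0.03 ± 0.23), were not called. UQCRB was the member of complex III with a positive value, and its EIR libraries lay on both sides of the parental library, with 9530.0 (parental), 14204 and 15562 (clone 3) and 12189 and 9289 (clone 4) (0.43 ± 0.32).

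In complex IV, 5 members fell, and none of them was called with the libraries of each clone summed (DESeq2 adjusted p from 0.0547 for COX7A2L to 0.282 for COX6A1). COX4I1, a subunit that takes part in regulation of the oxidase by ATP, had 9844 in parental cells, 6400.0 and 6576 in clone 3 and 5895 and 5688 in clone 4 (−0.68 ± 0.17, DESeq2 adjusted p = 0.00053). COX5B, which binds zinc on the matrix side, had 4359 in parental cells, 2975 and 2782 in clone 3 and 2548 and 2593 in clone 4 (−0.68 ± 0.17, DESeq2 adjusted p = 0.00105). COX8A, a small transmembrane subunit, had 1259 in parental cells, 676 and 706 in clone 3 and 779 and 706 in clone 4 (−0.81 ± 0.19, DESeq2 adjusted p = 0.000183). These values did not overlap between the groups.

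COX7A2L, a factor that joins complexes III and IV into supercomplexes, had 4154 in parental cells, 2494 and 2510.2 in clone 3 and 2575 and 2393 in clone 4 (−0.74 ± 0.14, adjusted p = 4.63e-06 with DESeq2 and 0.0267 with edgeR). The 4 EIR libraries differed by little, with a mean of 2493 ± 75.2 (SD, n = 4). COX6A1 was close to the threshold, with 5266 in parental cells, 3976 and 3933 in clone 3 and 3136 and 3318 in clone 4 (−0.55 ± 0.22, DESeq2 adjusted p = 0.0489), and it passed in 2 of 13 alternative fits. Leaving out any 1 EIR library ended the call (DESeq2 adjusted p from 0.069 to 0.137). COX7A2, COX6B1 and COX7C, with −0.34 ± 0.21, −0.39 ± 0.19 and −0.04 ± 0.18, were not called.

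Complex V contained the 1 member that rose. ATP5MC1 is 1 of 3 genes for the same proton-carrying c subunit of the ATP synthase ring, the mature protein being identical. It had 386 in parental cells, 588 and 671 in clone 3 and 705 and 651 in clone 4 (0.76 ± 0.22, DESeq2 adjusted p = 0.00324), an EIR mean of 1.69 times the parental value with no overlap. The edgeR adjusted p was 0.0835, and without treated clone 3 the DESeq2 adjusted p was 0.054. The other two genes for this subunit were not called, ATP5MC2 with 4313 (parental), 3199 and 2709.8 (clone 3) and 3477 and 3364 (clone 4) (−0.44 ± 0.21, DESeq2 adjusted p = 0.116) and ATP5MC3 with 2113 (parental), 2056 and 2296 (clone 3) and 2322 and 2335 (clone 4) (0.09 ± 0.17, DESeq2 adjusted p = 0.74). The 100 bases ahead of the start of ATP5MC1 (chr17:48892687-48892786, plus strand, GRCh38.p14) are shown because it was the riser, with its 3 CCAAT boxes in capitals. CCAAT on either strand was present in 34.8% of the members with a promoter entry and in 39.7% of all genes.
ATP5MC1: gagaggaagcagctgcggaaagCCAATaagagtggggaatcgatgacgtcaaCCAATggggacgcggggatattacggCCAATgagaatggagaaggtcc

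The members of complex V that fell were ATP5F1C, the central stalk gamma subunit, and ATP5MK, a small membrane subunit that helps synthases to form dimers. ATP5F1C had 9260.0 in parental cells, 5729.7 and 5929.6 in clone 3 and 5227 and 4724 in clone 4 (−0.78 ± 0.20, DESeq2 adjusted p = 0.00106), and ATP5MK had 5764 in parental cells, 3722 and 4159 in clone 3 and 3442 and 2934 in clone 4 (−0.69 ± 0.25, DESeq2 adjusted p = 0.0238). The call of ATP5MK was lost without untreated clone 3 (DESeq2 adjusted p = 0.064) or untreated clone 4 (0.086). The catalytic subunits ATP5F1A, with 24349 in parental cells and 17166 to 20532 in the 4 EIR libraries, and ATP5F1B, with 18064 in parental cells and 13729 to 16495 in the 4 EIR libraries, did not pass the test (−0.37 ± 0.17 and −0.24 ± 0.19). ATP5IF1, the inhibitor that blocks ATP hydrolysis, had 5075 (parental), 3864 and 3479 (clone 3) and 3191 and 2562 (clone 4) (−0.63 ± 0.27, DESeq2 adjusted p = 0.0718).

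**Figure D2:**
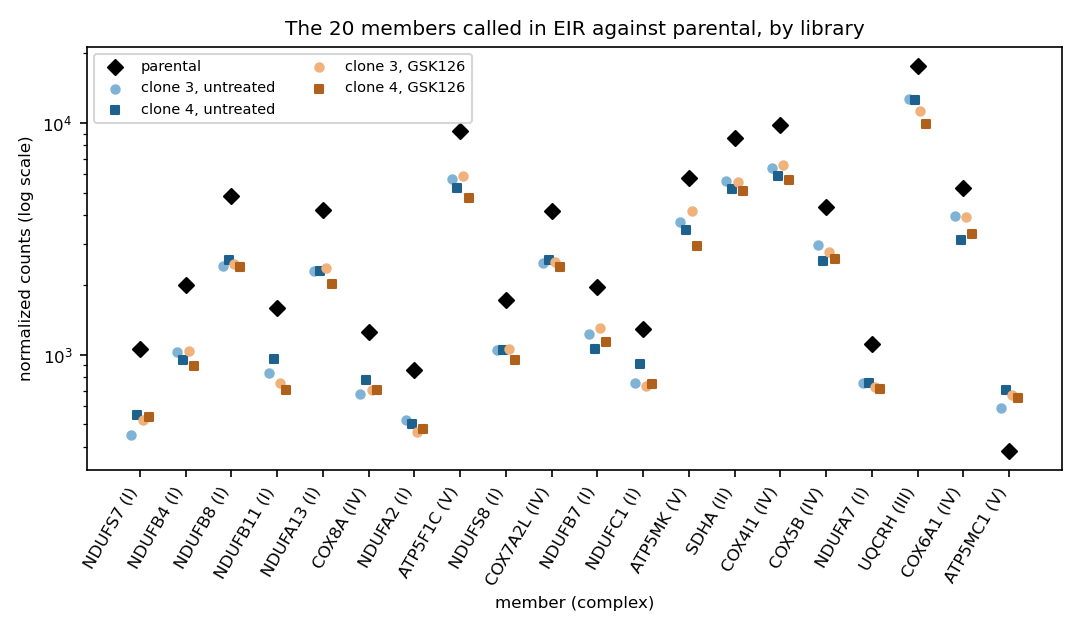
Normalized counts (y axis, log scale) of the 20 members called in EIR against parental cells are plotted with 1 point per library, and members are ordered from the lowest log2 fold change (NDUFS7, −1.04) to ATP5MC1 (0.76). The parental diamond lies above all 4 EIR points in 19 members and below them in ATP5MC1. The members shown were called from the same libraries, so this separation largely follows from the choice. Of all expressed genes, 40.6% had all 4 EIR libraries below the parental library and 31.9% above it.

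Isoforms that are known from lung, testis or hypoxic cells had few counts. COX4I2, the lung isoform that replaces COX4I1, had 4 counts in untreated clone 3 and 0 in the other 4 libraries. COX8C, the testis isoform, and UQCRHL, a copy of UQCRH, had at most 1 count in any library, and NDUFA4L2, which is induced by hypoxia in many cells, had 0 to 7. COX6B2, the testis counterpart of COX6B1, had 13 to 33 counts and was not called (0.78 ± 0.88, DESeq2 adjusted p = 0.569). For the others a difference between the groups was not detectable at this depth. The expressed counterparts COX6B1, COX7A2 and NDUFA4 had 3726 in parental cells and 2527 to 3069.9 in the 4 EIR libraries, 4305 in parental cells and 2901 to 3738 in the 4 EIR libraries and 1885 in parental cells and 1389 to 1799.5 in the 4 EIR libraries, respectively. The readthrough gene NDUFC2-KCTD14 had 17 counts in parental cells and in treated clone 4 and 0 in the other 3 libraries, and ATP5MGL had 7 to 13.

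Levels were compared between members only per kb of transcript (normalized counts divided by the median length of a gene's protein-coding transcripts, averaged over the 5 libraries). In complex I, NDUFS5 had the highest level among expressed members (16281 per kb) and NDUFV3 the lowest (341). In complex II these were SDHB (3190) and SDHC (573), in complex III UQCRH (23832) and UQCRFS1 (756), and in complex IV COX7C (12763) and COX5A (1045). ATP5F1A (21874) was highest in complex V and the readthrough gene ATP5MF-PTCD1 (43.3) lowest. The order depended on the length used, and with the longest transcript NDUFA9 (201) was lowest in complex I, COX6C (8640) highest in complex IV and ATP5PD (10535) highest in complex V.

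Several properties of the transcripts moved with the difference between EIR and parental cells. Over all expressed genes, the median log2 fold change was 0.29 for transcripts under 45% GC (4123 genes), −0.11 from 45% to 55% (4034 genes) and −0.39 at 55% or more (3220 genes). The members followed the same order but lay lower in each bin, with −0.17 (25 members), −0.36 (37) and −0.47 (19). After correction for GC in each library, the medians of the members were −0.35, −0.25 and −0.10, and that of all 81 was −0.24 against 0.02 for all expressed genes. With this correction 18 members were called lower (9.32% of all genes) and 1 higher (10.3% of all genes). Of the 20 members called before, 13 passed. The calls of NDUFS7, NDUFB11, NDUFS8, COX8A, NDUFA7, NDUFB7 and COX6A1 were lost, their GC ranging from 52.9% to 66.9%, whereas NDUFA4, NDUFB5, NDUFB6, ATP5MG, ATP5MJ and ATP5PO were gained. NDUFB4, with a GC of 43.8%, had −1.12 after correction (DESeq2 adjusted p = 3.03e-08), and COX7A2L, at 41.8%, had −0.94 (DESeq2 adjusted p = 2.94e-11).

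**Figure D3:**
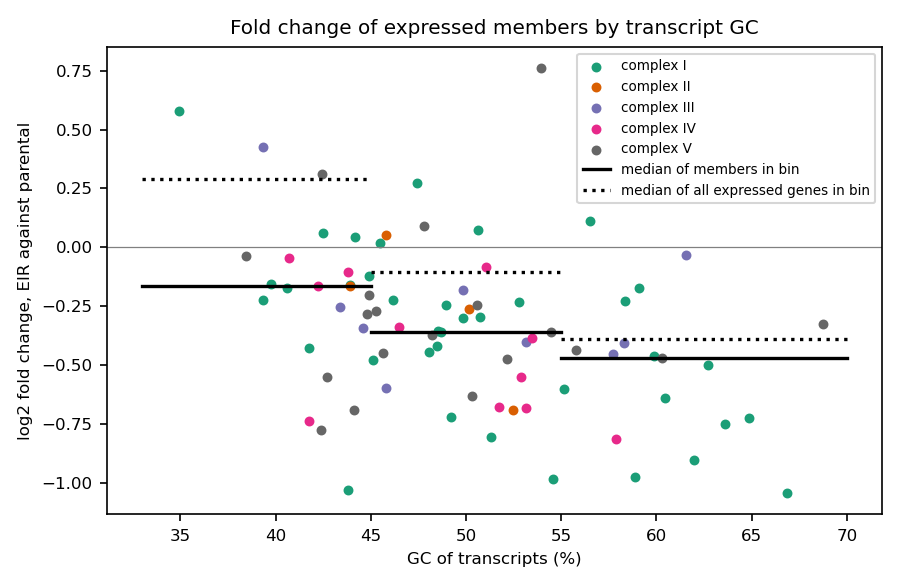
The log2 fold change of EIR against parental cells (y axis) is plotted against the GC content of a member's transcripts in % (x axis), with points coloured by complex. Solid bars are the members' medians and dotted bars those of all expressed genes in the same GC bin, and the solid bar lies below the dotted one in all 3 bins.

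The position of a member in the genome was also considered, by the median log2 fold change of the expressed genes within 5 Mb on either side. Over the 81 expressed members, 60 lay below the median of their neighbours, by a median of 0.28 on the log2 scale. On chromosome 10 the neighbours themselves were low. NDUFB8 (−0.98 ± 0.14) lay among 88 genes with a median of −0.86, ATP5F1C (−0.78 ± 0.20) among 25 genes with −0.65, and ATP5MK (−0.69 ± 0.25) among 62 genes with −0.89. The median of all 449 expressed genes of chromosome 10 was −0.42, and −0.47 after GC correction. By contrast, NDUFB4 (−1.03 ± 0.19) lay among 41 genes with a median of 0.23, NDUFC1 (−0.72 ± 0.22) among 20 genes with 0.22, and COX7A2L (−0.74 ± 0.14) among 41 genes with 0.19. A total of 6 called members (NDUFA2, NDUFB8, NDUFB11, NDUFC1, COX4I1 and ATP5MK) are overlapped by a gene on the other strand, and since strand use in counting is not stated, reads of the 2 genes cannot be told apart.

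**Figure D4:**
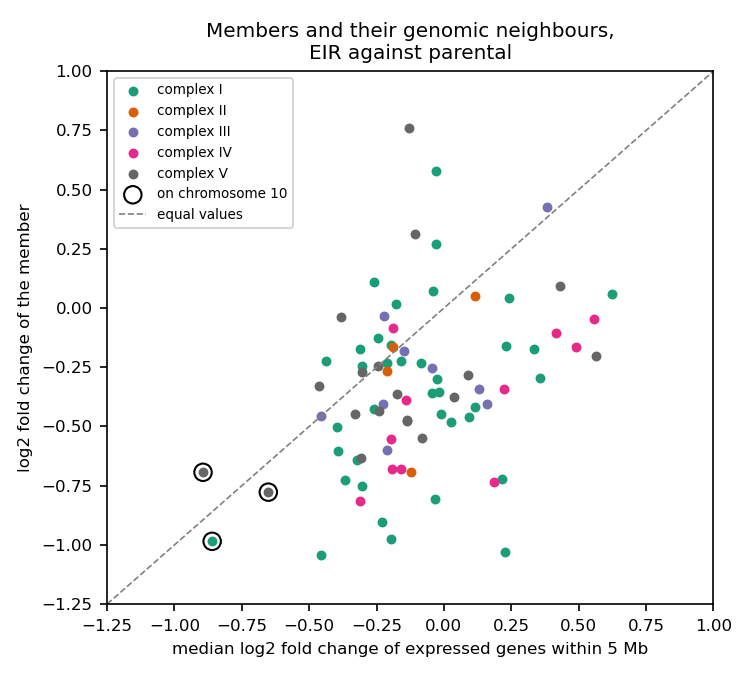
The log2 fold change of each expressed member, EIR against parental cells (y axis), is plotted against the median log2 fold change of expressed genes within 5 Mb (x axis). The dashed line marks equal values, 60 of 81 members lie below it, and the 3 circled members of chromosome 10 lie at neighbour medians of −0.65 to −0.89.

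The promoter letters were set beside the fold changes. All 20 called members had a promoter entry, and 5 of them held the NRF1 letters, 5 the ETS letters, 3 the YY1 letters and 3 the estrogen-related receptor letters. The median log2 fold change was −0.30 for 14 expressed members with the NRF1 letters and −0.40 for 52 without, and −0.43 for 12 with the ETS letters and −0.37 for 54 without. It was −0.22 for 9 with the YY1 letters and −0.40 for 57 without, and −0.37 for 11 with the estrogen-related receptor letters and −0.40 for 55 without. These medians are descriptions, and no difference between them was tested.

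A list of 13 regulators of mitochondrial biogenesis, among them these promoter factors and factors that act on mitochondrial DNA, had 2 members higher and 2 lower. These counts were near the shares of all genes, 12.4% higher and 13.2% lower. PPARGC1A, which encodes the coactivator PGC-1alpha, rose, with 1017 in parental cells, 2504 and 2369.9 in clone 3 and 2680.5 and 3107 in clone 4 normalized counts (1.39 ± 0.23, adjusted p = 3.57e-08 with DESeq2 and 0.0143 with edgeR). GABPA, the ETS factor, also rose, with 844 in parental cells, 1673 and 1809 in clone 3 and 2203 and 1718 in clone 4 (1.13 ± 0.24, DESeq2 adjusted p = 3.36e-05), and its value after GC correction was 0.54. YY1 fell, with 5392 (parental), 3132 and 3451 (clone 3) and 3945 and 3890.1 (clone 4) (−0.58 ± 0.21, DESeq2 adjusted p = 0.026), as did POLRMT, the mitochondrial RNA polymerase (−0.50 ± 0.19, DESeq2 adjusted p = 0.0365), whose value was 0.02 after GC correction. The other 9 regulators were not called, among them NRF1 (−0.12 ± 0.25), TFAM, which packages mitochondrial DNA (0.01 ± 0.30), and ESRRA (−0.56 ± 0.28).

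Genes that work beside the respiratory chain were described by the same fit, in which 12.4% of all genes were higher and 13.2% lower. Of 15 genes of electron carriers, 1 rose and 3 fell. CYCS, cytochrome c, which carries electrons between complexes III and IV, rose with 5859 in parental cells, 15873 and 19736 in clone 3 and 18123 and 15655 in clone 4 (1.57 ± 0.21, adjusted p = 7.42e-12 with DESeq2 and 0.0141 with edgeR). COQ5, an enzyme of ubiquinone synthesis (−0.82 ± 0.18), and the electron transfer flavoproteins ETFA (−0.62 ± 0.21) and ETFB (−0.47 ± 0.16) fell. In the citric acid cycle 3 of 18 genes rose and 2 fell. IDH2, the mitochondrial NADP-dependent isocitrate dehydrogenase, fell with 6556 in parental cells, 1215 and 1230.4 in clone 3 and 1509.6 and 1720.3 in clone 4 (−2.21 ± 0.27, DESeq2 adjusted p = 5.77e-14), and pyruvate carboxylase, PC, fell as well (−1.55 ± 0.40), whereas SUCLA2 (0.79 ± 0.25), IDH3A (0.65 ± 0.22) and DLD (0.46 ± 0.17) rose.

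Of 48 assembly factors of the complexes, 5 were higher and 8 (16.7%) lower, near the shares of all genes. NDUFAF4 and NDUFAF6, assembly factors of complex I (1.198 ± 0.33 and 0.98 ± 0.33), and LYRM7, which takes part in Rieske protein insertion into complex III (1.04 ± 0.21), rose. SDHAF4, an assembly factor of SDHA, fell with 795 in parental cells, 319 and 313 in clone 3 and 289.9 and 264 in clone 4 (−1.42 ± 0.23, adjusted p = 4.3e-08 with DESeq2 and 0.0139 with edgeR). The complex IV assembly factors COA5 (−1.06 ± 0.19) and COX14 (−0.95 ± 0.34) fell too. The median over the 48 was −0.11. Proteins of the mitochondrial ribosome had a median of −0.03, with 4 of 76 higher and 3 lower, and those of the cytosolic ribosome −0.36, with 0 of 82 tested genes higher and 26 lower. Among the mitochondrial ones, MRPL1 (1.51 ± 0.25) and MRPS2 (1.38 ± 0.31) rose and MRPL43 (−1.31 ± 0.31) and MRPS16 (−0.83 ± 0.23) fell. The respiratory chain members shared short transcripts with the cytosolic ribosomal proteins, with median lengths of 651 and 682 bases against 1936 for all genes.

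Untreated and GSK126-treated EIR cells were then each set against the same parental library, in 1 fit with 3 groups. In untreated EIR cells, 10 members were called with DESeq2, all lower (13.2% of all genes were called, 6.83% lower and 6.39% higher). In GSK126-treated EIR cells, 14 members were called, all lower (12.4% of all genes were called, 6.13% lower and 6.25% higher). The median over expressed members was −0.31 untreated and −0.37 treated. With edgeR 0 members were called in either group, where it called 0.919% (untreated) and 0.965% (treated) of all genes lower. An unadjusted DESeq2 p under 0.05 was reached by 20 members (18 lower) untreated and 23 (22 lower) treated. Over all genes with a p-value 3844 reached it untreated and 4036 treated. Of these genes only 15114 and 16295 entered the adjusted test, so no share is given. Among tested members, 12.2% (untreated) and 17.1% (treated) were called, all lower. In either direction this stood against 13.2% and 12.4% of all genes, and by direction against 6.83% and 6.13% lower. NDUFS7 had −1.09 ± 0.32 untreated and −0.999 ± 0.32 treated, NDUFB4 −1.01 ± 0.28 and −1.05 ± 0.28, NDUFB8 −0.97 ± 0.23 and −1.004 ± 0.23, and NDUFA13 −0.87 ± 0.25 and −0.94 ± 0.25. Values for NDUFB11 were −0.83 ± 0.28 and −1.13 ± 0.28, for COX8A −0.79 ± 0.29 and −0.84 ± 0.29, for ATP5F1C −0.76 ± 0.27 and −0.80 ± 0.27, for COX7A2L −0.71 ± 0.23 and −0.76 ± 0.23, and for NDUFA2 −0.75 ± 0.30 and −0.87 ± 0.30. Leaving out untreated clone 3 or untreated clone 4 left 0 called members in both contrasts, where 2.84% and 1.82% (untreated contrast) and 2.74% and 3.05% (treated contrast) of all genes were lower. Without treated clone 3 there were 3 (untreated) and 5 (treated), with 4.44% and 3.42% of all genes lower, and without treated clone 4 there were 3 and 1, with 4.22% and 2.4%.

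GSK126 itself was examined within the EIR clones. None of the 87 members tested was called between treated and untreated EIR cells (0 called with DESeq2, 0 with edgeR and 0 with the clone as a block, and 0 with an unadjusted DESeq2 p under 0.05). Over all genes 1 was called, which is 0.00335% of those tested. An unadjusted DESeq2 p under 0.05 was reached by 117 of all genes, where 29847 entered the adjusted test. With the clone as a block it was reached by 282. The main fit had no clone term, and few genes of any kind passed. A count of 0 therefore does not set the members apart from other genes. The fitted values of the 81 expressed members ranged from −0.31 (NDUFB11) to 0.15 (ATP5F1D), and their 95% intervals (normal approximation from the SE) all lay between −0.91 and 0.93, so that a 2-fold change was outside the interval of every expressed member. The median was −0.06.

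The clones gave unlike values after GSK126. In clone 3 the median log2 ratio of treated to untreated cells was 0.03, with 24 of 81 members below 0, and in clone 4 it was −0.16, with 69 of 81 below 0. Over all expressed genes the medians were 0.03 and −0.03, with 41.3% (clone 3) and 55.2% (clone 4) of them below 0. A total of 50 members were above untreated in clone 3 and below it in clone 4, 19 were below in both, 7 above in both and 5 below in clone 3 and above in clone 4. The matching shares of all expressed genes were not counted, and all genes were tilted the same way. With 1 library per clone and treatment, this difference could not be tested. Treated clone 4 was also the library with the fewest counts (25479238).

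**Figure D5:**
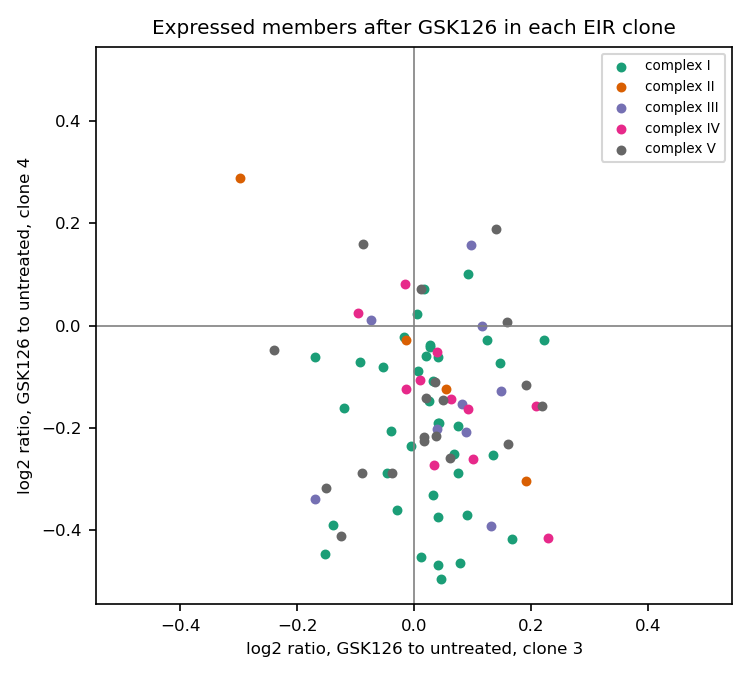
The log2 ratio of GSK126-treated to untreated normalized counts in clone 3 (x axis) is plotted against that in clone 4 (y axis), 1 point per expressed member, coloured by complex. Most points (50 of 81) lie in the lower right quadrant, above 0 in clone 3 and below 0 in clone 4. The matching share of all expressed genes was not counted.

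Clone 4 had lower levels of most members than clone 3. The median log2 fold change of clone 4 against clone 3, with treatment as covariate, was −0.17 over expressed members and −0.04 over all expressed genes. Negative values were found for 67 of 81 members, and the matching share of all expressed genes was not counted. The shift was not particular to the members. Medians were −0.21 for the mitochondrial ribosome, −0.20 for the citric acid cycle, −0.14 for assembly factors and −0.10 for electron carriers. They were −0.02 for the regulators and 0.01 for the cytosolic ribosome. Complex III had the lowest median (−0.28, 9 of 9 negative), followed by complex V (−0.21), complex IV (−0.17), complex II (−0.14) and complex I (−0.13). Only 2 of 83 tested members were called, both lower, against 9.81% of all genes called, 6.52% lower and 3.30% higher. With edgeR 1 member was called lower (4.36% of all 29847 genes, without a filter on low counts). Of the genes beside the chain, MRPS28 (−0.66 ± 0.22) and MRPL33 (−0.58 ± 0.19) of the mitochondrial ribosome and SCO1, a copper chaperone of complex IV (−0.52 ± 0.18), were lower in clone 4, and COQ8A, a gene of ubiquinone synthesis, was higher (0.73 ± 0.25).

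NDUFAB1, the mitochondrial acyl carrier protein that also sits in complex I (GRCh37, chromosome 16, 23592335 to 23607637), had 1385 in parental cells, 1976 and 2014 in clone 3 and 1369 and 1329.9 in clone 4 (−0.57 ± 0.19 for clone 4 against clone 3, adjusted p = 0.028 with DESeq2 and 0.0422 with edgeR). Both libraries of clone 3 lay above the parental library and both of clone 4 just below it. COX6C, a subunit of complex IV (GRCh37, chromosome 8, 100885428 to 100905935), had 6824 in parental cells, 6943 and 8136 in clone 3 and 5876 and 4406 in clone 4 (−0.57 ± 0.19, adjusted p = 0.0337 with DESeq2 and 0.155 with edgeR). Again clone 3 was above and clone 4 below the parental library, by little in untreated clone 3. COX6C is overlapped by VPS13B on the other strand, and the 37 expressed genes within 5 Mb of it had a median of −0.43 in the same comparison. The 4 members of chromosome 8 (NDUFB9, CYC1, UQCRB and COX6C) had a median of −0.40, against −0.15 for the expressed genes of that chromosome. For NDUFAB1 the median of the 56 neighbours was −0.02. Without untreated clone 4, 14 members were called lower (11.0% of all genes), and without untreated clone 3 or treated clone 3 0 were (3.93% and 3.22% of all genes). Without treated clone 4 there were 3 (8.74% of all genes). The count rests on single libraries, and the share of all genes varied with the same libraries. The log2 fold change of NDUFAB1 stayed between −0.60 and −0.55 with 1 library left out, and its DESeq2 adjusted p was 0.255 without untreated clone 3 and 0.286 without treated clone 3. For COX6C the log2 fold change ranged from −0.79 to −0.37, and the call was lost without untreated clone 3, treated clone 3 or treated clone 4 (DESeq2 adjusted p = 0.131, 0.55 and 0.0648).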

How the data were processed

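RNA-seq was done on 5 libraries of TOV21G cells (1 parental, 4 EIR). Per the study's methods, the authors aligned reads to hg19 with bowtie2 and estimated counts per gene with RSEM (version 1.2.3 in the submitters' processing notes) on Ensembl genes, whose release is not given in the sources used here, and the deposited estimated counts (expected counts of RSEM) were whole numbers that had not been normalized. Library totals were 25479238 to 30764963, and the single parental library leaves its own spread unmeasured.

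Gene symbols, positions, GC content and transcript lengths came from GENCODE 44 on GRCh37, which matched 29203 of 30476 identifiers (95.8%). Promoters came from RefSeq (GRCh38.p14). The main test was the two-sided Wald test of DESeq2 1.42.0 (R 4.3.3) with its median-of-ratios scaling, called at a Benjamini-Hochberg adjusted p under 0.05 over all genes. An alternative was edgeR 4.0.16 (quasi-likelihood). Other alternatives were TMM and total count scaling, filters on counts of at least 10, GC and length correction, leaving out each EIR library, summing each clone's libraries, a 3-group fit and the clone number as a block. EIR was compared with parental cells, both together and by treatment, treated with untreated EIR cells, and clone 4 with clone 3 (treatment as covariate). The p-values measure only the spread between these libraries, and libraries of 1 clone are not independent. Same-numbered libraries came from the same clone, so the number paired them, and their deviations from the group means correlated at 0.862 across 11564 expressed genes, which are not independent replicates. The scripts were tested on simulated counts. Per-library ratios used a pseudocount of 0.5. Of members, the text names those called (up to 20 for EIR against parental and 8 otherwise), the highest and lowest per kb in each complex, isoform sets and complex II, and of the other lists up to 3 called genes in each direction. Other members were named after their values were seen, and 1 member is not reported here by name. The members, lists and tests were chosen with earlier results of these data known.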

Additional observations from a re-analysis of the deposited data

Results flagged for a closer look

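Of 30 named members checked for 1 EIR library far from the other 3, 3 had such a library. No chance rate is set beside this, since the 4 libraries come from 2 clones and the members share them. NDUFS8 had 946 normalized counts in treated clone 4, below 1044 to 1063 in the other EIR libraries. NDUFC1 had 910.4 in untreated clone 4, above 731 to 755. ATP5MC3 had 2056 in untreated clone 3, below 2296 to 2335.

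NDUFAB1 and COX6C differed between the clones, with log2 fold changes of −0.57 and −0.57 for clone 4 against clone 3 (DESeq2 adjusted p = 0.028 and 0.0337), and in both genes the libraries of clone 3 lay above and those of clone 4 below the parental library. The difference was tested between the clones, not against parental cells, which had 1 library.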

How the results depend on the processing

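The direction of all 20 members called in EIR against parental cells was the same under 13 alternative fits, while the number still called was 13 with edgeR, 13 with GC correction (with or without length correction), 16 in the 3-group fit and 5 with the libraries of each clone summed. Members called lower numbered 13 to 20 except 5 with summed clones and 2 at an absolute log2 fold change of at least 1, and 15 to 20 with 1 EIR library left out. Members called higher, 1 in the main fit, were 0 with edgeR, summed clones, the 3-group fit or that minimum fold change, 2 with total count scaling, either count filter or GC and length correction, and 0 to 3 with 1 library left out. At the minimum fold change, 2115 of all 16288 genes tested were called in either direction, a larger share than that of the members. The median over the 88 members was −0.33, and −0.21 with GC and length correction. SDHD, not called, ranged from −0.014 to 0.131 with 1 library left out and was negative without treated clone 3. The cause was not tested.

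Untreated EIR cells against parental gave 10 members, and 0 with edgeR, 5 with GC correction (with or without length correction), 2 at the minimum fold change and 0 to 3 with 1 library left out. Treated EIR cells gave 14, and 0 with edgeR, 9 with total count scaling, 6 with GC correction, 7 with GC and length correction, 3 at the minimum fold change and 0 to 5 with 1 library left out. For treated against untreated EIR cells, the replicate block (clone number) gave 0 called members, like the other alternatives including edgeR with the block, which was added after seeing the data. The block changed no call. The median was −0.06, −0.07 with the block, 0.01 with total count scaling and −0.229 to 0.0316 with 1 library left out, the lowest without treated clone 3. Clone 4 against clone 3 gave 2 lower members, and 1 with edgeR, 5 without the treatment covariate, 0 at the minimum fold change and 0 to 14 with 1 library left out, where the covariate was dropped. Where an arm held 1 library, it was assumed to vary like the others. Over all genes, the minimum fold change left 1430 of 15114 tested (untreated against parental) and 1483 of 16295 (treated against parental). For clone 4 against clone 3 it left 1096 of 17708. Without the treatment covariate, 2541 of 18286 genes were called, 1615 of them lower.

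Among the other lists, edgeR called 2 citric acid cycle genes (5 with DESeq2), 6 assembly factors (13), 2 electron carrier genes (4), 2 regulators (4), 2 mitochondrial (7) and 3 cytosolic ribosomal proteins (26). Levels per kb in the 5 complexes moved with the transcript length. Members at or under 3 counts in the groups compared allow no fold change.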
